A study of Macaca mulatta with 52 samples.

Results

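The 7 libraries described here are the SoLo libraries of single rhesus monkey (Macaca mulatta) embryos at the morula stage and at the 8-cell stage. They were chosen by their titles from the 52 samples of the series: 3 morulas (021016_02, 021016_03 and 022916_01) and 4 8-cell embryos (020816_06, 020816_07, 020816_08 and 112815_02), each with a column of gene counts. The codes in brackets are the title codes of the embryos. SoLo, a kit for very small RNA inputs, removes ribosomal RNA sequences once the first amplification is done. Per the labels' protocols, both groups came from in vivo matured oocytes of females given follicle-stimulating hormone and chorionic gonadotropin, fertilised in vitro and cultured in defined medium, then in medium with calf serum, without or with relaxin. Which embryos received relaxin, and on which day each was collected, is not stated in the labels. Cumulus cells, the follicle cells that surround the oocyte, were removed by pipetting. 1 further SoLo morula title of the series was not analysed here. The morula and 8-cell SoLo libraries share no title code, so stage and title code cannot be told apart within the kit. Embryos of the same codes and numbers also had libraries from SPIA, the other amplification kit of the series, and SPIA further covered 8 other morulas and 5 other 8-cell embryos.

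Between the 8-cell stage and the morula, a primate embryo finishes the switch from transcripts stored in the oocyte to its own transcripts. Its cells flatten against each other (compaction), build adherens and tight junctions, acquire an apical side and start to set outer cells, the later trophectoderm, apart from inner cells. Energy use moves over preimplantation development from pyruvate-based respiration toward greater use of glucose, and DNA methylation is largely erased while imprinted regions are protected.

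Total counts were 6744300 to 10571608 in the morula libraries and 7069953 to 8467737 in the 8-cell libraries. At a common depth of 6744300 counts, 12577 to 15806 identifiers were detected in morulas and 13488 to 15515 in 8-cell embryos. On a principal component analysis, component 1 held 33.8% of the variance and separated the stages. Component 2 held 19.6% and spread the libraries within both stages. A set of 13 abundant identifiers with no gene name took 22.3% to 35.2% of the counts in morulas and 12.7% to 23.3% in 8-cell embryos (two-sided exact permutation p = 0.114). The adjusted p over 4 library measures was 0.40, and 35 splits allow no p below 0.0286. Levels are given below in CPM, the usual unit of counts scaled to the size of the library, after scaling by the trimmed mean of M-values. They are listed in the order 021016_02, 021016_03 and 022916_01 for morulas and 020816_06, 020816_07, 020816_08 and 112815_02 for 8-cell embryos. They are relative levels within a library, so fewer cells of a type and less RNA per cell cannot be told apart, and CPM are not divided by gene length, so they compare libraries and not genes.

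The labelled stages were checked against their defining genes. The summed level of the 10 measured genes of embryonic genome activation was 108, 228 and 157 CPM in morulas, against 2791, 3347, 3456 and 2359.9 CPM in 8-cell embryos, with no overlap. Markers of cumulus and granulosa cells were unevenly present. Their sum over 18 measured genes was 142, 180 and 332 CPM in morulas, against 1237, 3684, 279 and 2361 CPM in 8-cell embryos. The 8-cell embryos 020816_06, 020816_07 and 112815_02 were high, while 020816_08 lay within the range of the morulas. Counts of calls are also given without those 3 8-cell embryos, a fit in which the remaining 8-cell library is assumed to vary like the other groups. Summed over 5 measured genes each, markers of sperm reached 32.4, 38.0 and 49.7 CPM in morulas and 96.7, 112, 85.8 and 85.4 CPM in 8-cell embryos. Markers of blood and immune cells stood at 18.3, 14.7 and 17.2 CPM in morulas and at 19.9, 49.6, 36.4 and 23.3 CPM in 8-cell embryos. Morula 022916_01 stood apart from the other morulas. The sum over 28 trophectoderm genes was 798, 954 and 2522 CPM in the morulas, against 642, 642, 476 and 746 CPM in 8-cell embryos, and results that rest on this morula are given without it too.

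**Figure D1:**
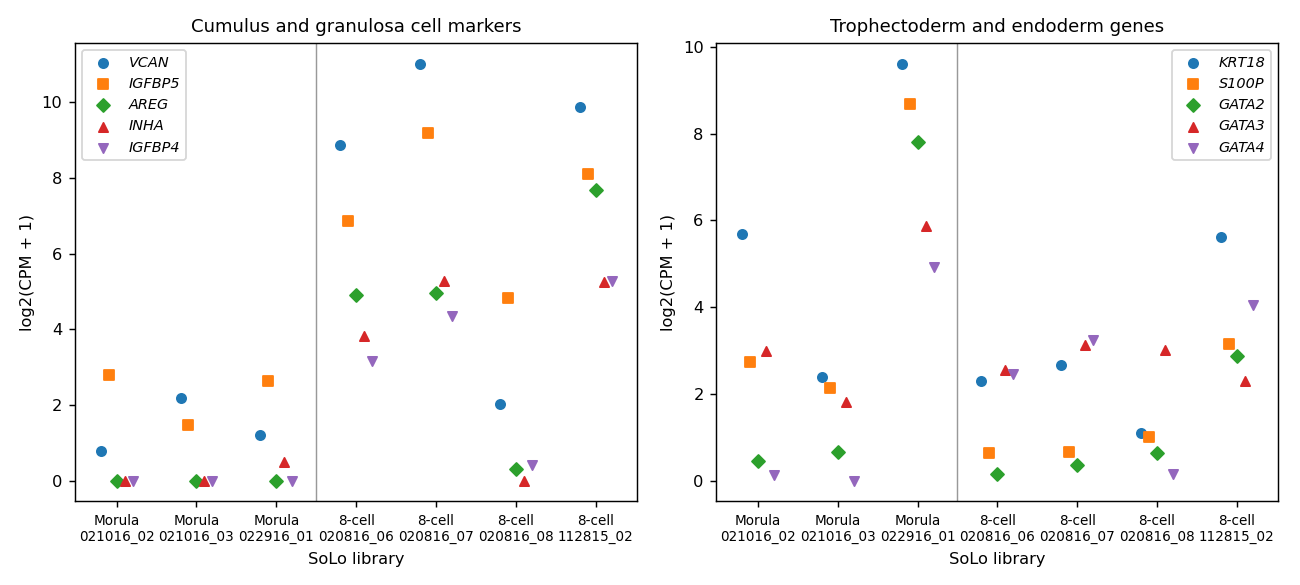
Levels, as log2(CPM + 1), of 5 cumulus and granulosa cell markers (left) and of 5 trophectoderm and endoderm genes (right) in each SoLo library, with the 3 morulas left of the grey line and the 4 8-cell embryos right of it. VCAN, AREG, INHA and IGFBP4 were high in 3 of the 4 8-cell embryos and low in 020816_08 and the morulas, and KRT18, S100P, GATA2, GATA3 and GATA4 were highest in morula 022916_01.

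Of 14196 genes tested, 2371 (16.7%) differed between morulas and 8-cell embryos with edgeR's quasi-likelihood test at a Benjamini-Hochberg adjusted p under 0.05, and such genes are called below. Among them, 1388 genes (9.78% of those tested) were higher and 983 (6.92%) were lower in morulas. Counts for gene lists below are to be read against these shares. The median log2 fold change, morula minus 8-cell, was -0.06 over all genes tested, 1.82 over the higher genes and -2.14 over the lower ones. A change of 2-fold or more was fitted for 1242 of the higher and 894 of the lower genes, and one of 16-fold or more for 263 and 282. No count was found in any morula for 102 of the lower genes, and none in any 8-cell embryo for 70 of the higher ones. Without the 3 8-cell embryos high in cumulus markers, 1602 genes (9.97% of 16067) were higher and 654 (4.07%) lower in morulas. Of the calls of the 7-embryo comparison, 795 higher and 479 lower ones remained. In 935 of the 983 lower genes, 8-cell embryo 020816_08 itself stood above every morula, against 4579 of all 14196 genes tested. That embryo was among the libraries that gave these calls, so the count is no independent check. Without morula 022916_01, 1082 genes (7.16% of 15120) were higher and 860 (5.69%) lower. Without morula 021016_02 the lower genes numbered 599 and the higher ones 1141. The split between directions moved with the method, since DESeq2 called 1607 genes higher (11.3% of 14196) and 1972 lower (13.9%), and limma voom 1661 higher (11.7%) and 1603 lower (11.3%).

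**Figure D2:**
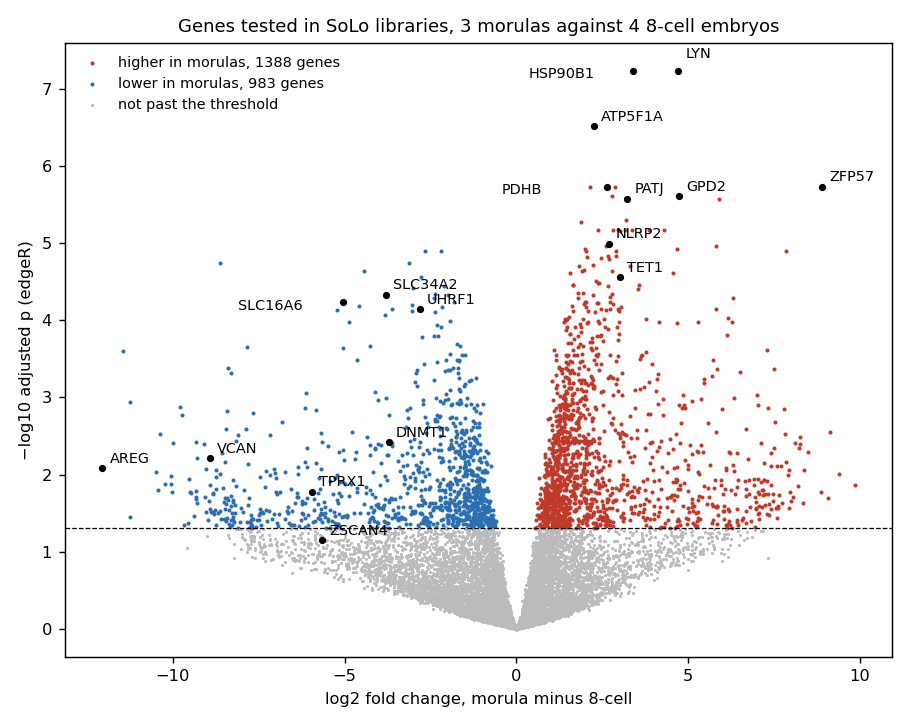
Log2 fold change, morula minus 8-cell (horizontal), against −log10 of the edgeR adjusted p (vertical) for the 14196 genes tested in SoLo; red points are the 1388 genes higher in morulas, blue points the 983 lower, grey points did not pass the threshold (dashed line), and black points are genes named in the text. LYN and HSP90B1 stand highest, and ZSCAN4 lies just under the line; positions of genes with no counts in a group depend on the prior count of the fit.

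The smallest adjusted p-values of the comparison belonged to LYN and HSP90B1. LYN, a tyrosine kinase of the SRC family, had 204, 225 and 306 CPM in morulas, against 14.4, 9.2, 6.11 and 7.62 CPM in 8-cell embryos. Every morula was above every 8-cell embryo by a wide margin (log2 fold change 4.71 ± 0.28 SE; edgeR adjusted p = 5.85e-08). HSP90B1, the HSP90 chaperone of the endoplasmic reticulum (also known as GRP94), had 2154, 2028 and 2537 CPM in morulas, against 253, 158, 201 and 238 CPM in 8-cell embryos (3.40 ± 0.21, adjusted p = 5.85e-08 in edgeR). These levels lay close together within each stage. In the 6 expanded blastocyst libraries of the kit, LYN ranged over 317 to 398 CPM and HSP90B1 over 1666 to 2691 CPM.

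GPD2, the mitochondrial glycerol-3-phosphate dehydrogenase that passes electrons from the cytosol to the respiratory chain, had 429.8, 191 and 373 CPM in morulas, against 10.3, 5.02, 17.5 and 16.4 CPM in 8-cell embryos (4.75 ± 0.40, adjusted p = 2.47e-06 in edgeR). Its lowest morula was more than 10 times its highest 8-cell embryo. ZFP57, a zinc finger protein that binds methylated imprinting control regions and protects their methylation, had 45, 28.9 and 28.6 CPM in morulas, against 0, 0, 0.113 and 0.134 CPM in 8-cell embryos. The 8-cell libraries held 2 counts of it in all and the morulas 906, a ratio of 644-fold (95% counting interval 178 to 5328), with an edgeR adjusted p of 1.88e-06. All 4 genes stayed called without any single library, without the 3 8-cell embryos high in cumulus markers (largest adjusted p 0.000379 for GPD2) and without morula 022916_01.

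In SPIA libraries of the same 7 embryos, ZFP57 had 27.8, 3.54 and 12.1 CPM in morulas, against 0, 0.0428, 0 and 0 CPM in 8-cell embryos. GPD2 had 211, 49.7 and 222 CPM, against 1.95, 42.5, 0.569 and 9.91 CPM, and was not called (log2 fold change 3.54, edgeR adjusted p = 0.123). The stages lay further apart for LYN (90.4 to 201 CPM, against 0.949 to 5.14 CPM) and HSP90B1 (2059 to 2976 CPM, against 168 to 411 CPM). In the 8 other SPIA morulas ZFP57 had 17.6, 5.68, 10.2, 0, 3.12, 3.47, 0 and 6.27 CPM, against 4.06, 0.0375, 0, 0.0435 and 43.8 CPM in the 5 other 8-cell embryos. The groups of other embryos overlapped: 8-cell embryo 112815_01 carried the highest level of all, and 2 morulas held none (log2 fold change -0.73; edgeR adjusted p = 0.905). LYN had 132, 58.2, 105, 83.2, 136, 116, 8.66 and 108 CPM in those morulas, against 1.65, 9.61, 20.7, 1.52 and 9.76 CPM in those 8-cell embryos (3.43, adjusted p = 0.107). The morula with the least LYN was 022916_02, which lay inside the 8-cell range, and the other 7 lay above it. The same morula also had the least GPD2 of the 8, whose levels were 128, 105, 51.6, 105, 33.1, 44.7, 1.23 and 547 CPM, against 3.29, 13.4, 6.05, 2.04 and 17.4 CPM in the other 8-cell embryos (3.91, adjusted p = 0.107). Levels of HSP90B1 were 695, 3234, 119, 3266, 806, 1091, 166 and 371 CPM in the 8 other morulas. In the 5 other 8-cell embryos they were 101, 268, 677, 270 and 174 CPM, so the stages overlapped. Without the library labelled morula 022916_02, LYN (3.76, edgeR adjusted p = 0.0378) and GPD2 (4.17, adjusted p = 0.0342) were called. HSP90B1 (2.42, adjusted p = 0.0871) and ZFP57 (-0.41, adjusted p = 0.937) were not, and 0.536% of 9334 genes tested were higher. That library was left out after its levels were seen, those of LYN and GPD2 among them, so these calls are no independent check.

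Title code 020816 holds both stages in SPIA, with 3 morulas and 5 8-cell embryos, and so allows a comparison within a code. It is not a separate set of embryos. Its 8-cell embryos 020816_06, 020816_07 and 020816_08 are also in the SoLo comparison, and its 3 morulas are among the 8 other SPIA morulas. LYN had 171, 74.9 and 115 CPM in those morulas, against 3.24, 4.71, 0.861, 25 and 1.48 CPM in those 8-cell embryos, and GPD2 had 166, 136 and 56.7 CPM, against 1.75, 38.9, 0.517, 7.29 and 1.99 CPM. ZFP57 had 22.8, 7.32 and 11.2 CPM in the morulas, against 0, 0.0392, 0, 0 and 0.0424 CPM in the 8-cell embryos. For these 3 genes no morula of the code overlapped an 8-cell embryo, whereas HSP90B1 did overlap, with 903, 4167 and 131 CPM in morulas, against 351, 276, 152, 816 and 264 CPM in 8-cell embryos. None of the 4 passed the edgeR threshold within the code (adjusted p 0.278 for LYN, 0.361 for HSP90B1, 0.143 for ZFP57 and 0.354 for GPD2), where 4 genes (0.0356% of 11244) were called higher.

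**Figure D3:**
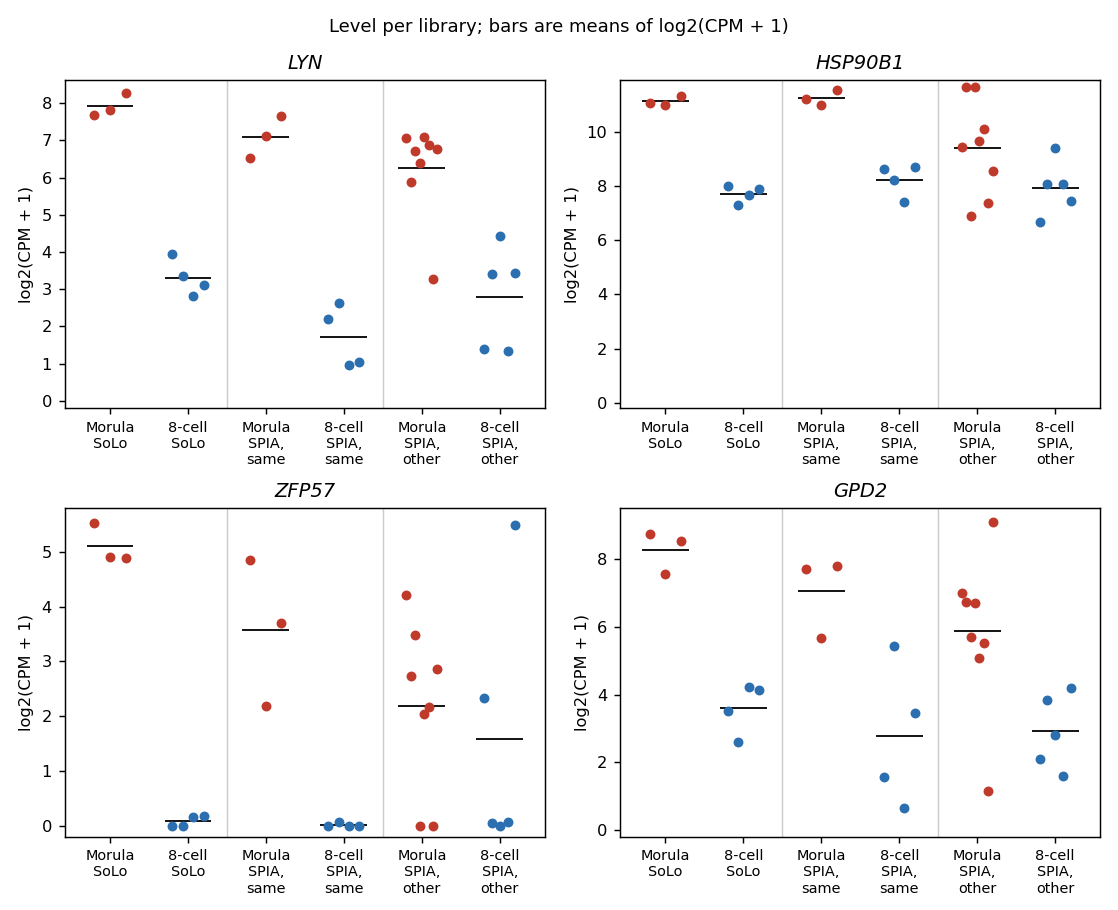
Levels of LYN, HSP90B1, ZFP57 and GPD2 as log2(CPM + 1) (vertical), a point per library and a bar at the mean of each group, for SoLo, for SPIA of the same 7 embryos and for SPIA of other embryos, with morulas (red) left of 8-cell embryos (blue) in each pair. The SoLo groups do not overlap for any of the 4 genes. Among the other SPIA embryos ZFP57 overlaps widely and HSP90B1 overlaps too, while LYN and GPD2 overlap only through morula 022916_02.

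Among named genes whose stages did not overlap and that had at least 1 CPM in every library of the higher stage, the largest fitted increases after ZFP57 were spread over unrelated functions. NGEF, a guanine nucleotide exchange factor, had 59.1, 13.2 and 92.5 CPM in morulas, against 0.109, 0, 0.679 and 0.134 CPM in 8-cell embryos (7.84 ± 0.78, adjusted p = 1.28e-05 in edgeR). MICALL1, an adaptor of endocytic recycling, was 223-fold (95% counting interval 61.3 to 1852) higher, and N4BP3, which binds the ubiquitin ligase NEDD4, was 201-fold (95% counting interval 68.5 to 981) higher. HS3ST3A1, a heparan sulfate sulfotransferase, had 10.3, 4.1 and 9.71 CPM in morulas, against 0.109, 0, 0 and 0 CPM in 8-cell embryos. The cytokine gene IL6 had 19.6, 3.81 and 5.25 CPM in morulas, against 0, 0, 0 and 0.267 CPM in 8-cell embryos (adjusted p = 0.000939), a low level throughout with no overlap. Genes with no count in any 8-cell embryo can be given only as bounds, taken against 3 counts over the group. By that measure BBC3, the pro-apoptotic protein PUMA, was at least 34.1-fold higher, the planar polarity gene PRICKLE3 at least 29.4-fold, the exocytosis GTPase RAB37 at least 28.4-fold and the ATP-gated channel P2RX5 at least 22.8-fold. The microRNA locus mml-mir-7-1 had 5.87, 4.54 and 3.8 CPM in morulas, against 0, 0, 0 and 0 CPM in 8-cell embryos, at least 58.8-fold higher. These counts are reads over the locus in a total RNA library and do not measure the mature microRNA. PSD, an exchange factor for ARF6, had 1.56, 13.2 and 1.97 CPM in morulas, against 0, 0.0948, 0 and 0 CPM in 8-cell embryos, and its call was lost without morula 021016_03 (adjusted p = 0.0856). Without the 3 8-cell embryos, BBC3, PRICKLE3, P2RX5 and PSD were no longer called (adjusted p 0.0616, 0.0652, 0.129 and 0.138).

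The largest fitted decreases under the same rule were genes with no count in any morula. PPP2R2C, a regulatory subunit of protein phosphatase 2A, had 0 CPM in all 3 morulas, against 12, 15.9, 23.5 and 11.9 CPM in 8-cell embryos, at least 135-fold lower (edgeR adjusted p = 0.00389). HES7, a basic helix-loop-helix repressor known from the segmentation clock, was at 0, against 8.17, 9.39, 13.1 and 21.6 CPM in 8-cell embryos, and at least 106-fold lower. PLAGL1, a zinc finger gene imprinted in mouse and human, was at 0, against 15.5, 28.4, 7.7 and 31.1 CPM in 8-cell embryos (at least 174-fold lower). The meiotic crossover gene RNF212 was at least 91.2-fold lower, the formin FMN1 at least 86.5-fold, the kinase gene CAMK1D at least 76.6-fold and the ATP-gated channel P2RX3 at least 93.8-fold. ULBP3, a ligand of an activating receptor of natural killer cells, was at least 167-fold lower and the neonatal Fc receptor FCGRT at least 55.6-fold. HJV, a co-receptor of bone morphogenetic proteins, had 0, 0 and 0.262 CPM in morulas, against 31.9, 1.61, 66.6 and 103 CPM in 8-cell embryos, which is 588-fold (95% counting interval 162 to 4858) lower. The cytoskeletal linker OBSL1 had 0 CPM in morulas, against 26.5, 70.2, 1.92 and 51.3 CPM in 8-cell embryos, and its lowest 8-cell library was 020816_08, the one low in cumulus markers. KLHDC1, with 0 CPM in morulas, against 5.44, 7.96, 1.25 and 9.89 CPM in 8-cell embryos, lost its call without any one of the 3 morulas (adjusted p up to 0.0824). RNF212 and ULBP3 lost theirs without morula 021016_02 (adjusted p 0.0517 and 0.0515). KLHDC1, PLAGL1 and ULBP3 were not called without the 3 8-cell embryos (adjusted p 0.173, 0.0522 and 0.0672).

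LYN's own family moved in part. The list counts that follow include LYN itself and are to be set against 9.78% higher and 6.92% lower over all genes tested. Of 13 tested genes of SRC family kinases and their regulators, 3 rose and 1 fell (3 and 0 without the 3 8-cell embryos, 2 and 0 without morula 022916_01), with a median log2 fold change of 0.73 against -0.06 over all genes tested. YES1, the widely expressed SRC family kinase, had 178, 132 and 127 CPM in morulas, against 19.1, 36.1, 20.1 and 35.9 CPM in 8-cell embryos (2.39 ± 0.28, adjusted p = 3.26e-05 in edgeR), so all morulas stood above all 8-cell embryos. The other calls rest on a few libraries. PTPN6, the phosphatase SHP-1, had 0, 0 and 4.07 CPM in morulas, against 0, 0, 0 and 0 CPM in 8-cell embryos, with counts in morula 022916_01 alone, and SRC had 0, 0 and 0 CPM in morulas, against 6.53, 0, 0 and 15.9 CPM in 8-cell embryos, with counts in 2 8-cell embryos. Leaving out any one 8-cell embryo or morula 022916_01 ended the call of PTPN6, and every morula and 8-cell embryos 020816_06 and 112815_02 did so for SRC (adjusted p up to 1.0 for PTPN6 and 0.0976 for SRC).

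Around HSP90B1, a majority of the tested genes of protein folding in the endoplasmic reticulum rose. Of 21 tested chaperones and folding enzymes, HSP90B1 included, 13 rose and none fell (median log2 fold change 1.17), against 9.78% higher over all genes tested. The count was 10 without the 3 8-cell embryos, and without morula 022916_01 it was 13. SIL1, a co-chaperone picked out after its values were seen, lay below the 8-cell range in every morula (-2.85 ± 1.11) but missed the edgeR threshold (adjusted p = 0.0874). DESeq2 called 12 genes of the list higher and 1 lower. PDIA3, a disulfide isomerase that works on glycoproteins, had 939.9, 808 and 734 CPM in morulas, against 190.4, 169.8, 108 and 313 CPM in 8-cell embryos (2.08 ± 0.27, adjusted p = 7.58e-05 in edgeR). CALR, the calcium-binding lectin chaperone calreticulin, had 905, 759.9 and 753 CPM in morulas, against 316, 241, 230.1 and 312 CPM in 8-cell embryos (1.55 ± 0.17, adjusted p = 2.44e-05). PDIA6, another disulfide isomerase, had 334, 294 and 257 CPM in morulas, against 124, 92.9, 89 and 119 CPM in 8-cell embryos (1.47 ± 0.19, adjusted p = 9.54e-05), and the stages did not overlap for any of the 3. Of 25 genes of protein entry into the endoplasmic reticulum, signal peptide cleavage and glycan transfer, 8 rose and none fell, with a median of 0.26. The count was 4 without the 3 8-cell embryos. The oligosaccharyltransferase subunits RPN1 (1.64 ± 0.21) and STT3B (1.65 ± 0.27), the signal peptidase subunit SPCS1 (2.03 ± 0.43) and the translocon-associated SSR4 (1.79 ± 0.40) had the smallest adjusted p-values, from 7.71e-05 to 0.00594 in edgeR.

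Regulators of the unfolded protein response and the integrated stress response were split. Over all genes tested, 9.78% were higher and 6.92% lower. Of 17 tested, 4 rose and 1 fell (median 0.70), and 2 rose and none fell without the 3 8-cell embryos, 3 and none without morula 022916_01, and 4 and 2 with DESeq2. ASNS, asparagine synthetase, had 85.7, 285 and 37.5 CPM in morulas, against 21.4, 5.31, 3.74 and 28.1 CPM in 8-cell embryos (3.22 ± 0.81, adjusted p = 0.0181 in edgeR). TRIB3, a pseudokinase induced in amino acid shortage, had 9.99, 5.13 and 2.36 CPM in morulas, against 0.218, 0, 0 and 0.134 CPM in 8-cell embryos, and EIF2AK1, the haem-regulated eIF2 kinase, had 77.2, 55.3 and 67.6 CPM in morulas, against 15.6, 44.8, 17.9 and 14.3 CPM in 8-cell embryos (1.52 ± 0.36, adjusted p = 0.00884). PPP1R15A, the phosphatase subunit that ends the response by restoring eIF2, fell, with 16.7, 29.8 and 7.87 CPM in morulas, against 36, 66, 89.4 and 95.7 CPM in 8-cell embryos (-1.99 ± 0.63, adjusted p = 0.0393). Only EIF2AK1 of these 4 kept its call without any single library. ASNS lost its call without morula 021016_03, and TRIB3 without 020816_07, 020816_08 or 021016_02. PPP1R15A lost its call without 020816_07, 020816_08, 112815_02, 021016_02 or 022916_01 (adjusted p up to 0.0735, 0.0695 and 0.118 for the 3 genes).

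The DNA methylation machinery changed in both directions. Of 23 tested genes of DNA methylation and imprint maintenance, 6 rose and 3 fell, and the counts were 5 and 3 without the 3 8-cell embryos and 6 and 3 without morula 022916_01. DNMT1, the maintenance methyltransferase, fell, with 128, 298 and 82.9 CPM in morulas, against 1392, 3703, 2803 and 982 CPM in 8-cell embryos (-3.71 ± 0.69, adjusted p = 0.00384 in edgeR). UHRF1, which brings DNMT1 to replicated DNA, fell too, with 40.2, 60.2 and 66.4 CPM in morulas, against 255, 619, 440.3 and 240.3 CPM in 8-cell embryos (-2.81 ± 0.36, adjusted p = 7.22e-05). The stages did not overlap for either gene, and 8-cell embryo 020816_07 had the most of both. KDM1B, a histone demethylase needed to set up imprints in mouse oocytes, had 39.6, 78.7 and 29.9 CPM in morulas, against 122, 145, 201 and 93.5 CPM in 8-cell embryos (-1.51 ± 0.43, adjusted p = 0.0242) and lost its call without 020816_08, 021016_02 or 022916_01 (adjusted p up to 0.0896).

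TET1, the enzyme that oxidises methylcytosine, rose, with 773, 711 and 755 CPM in morulas, against 91.9, 72.9, 39.3 and 164 CPM in 8-cell embryos (3.02 ± 0.34, adjusted p = 2.78e-05 in edgeR). Its 3 morulas were nearly equal, while the 8-cell embryos were spread more widely. DNMT3L, the cofactor of the de novo methyltransferases, had 86.9, 99.4 and 169 CPM in morulas, against 16.2, 16.1, 20.4 and 24.6 CPM in 8-cell embryos (2.61 ± 0.27, adjusted p = 1.1e-05), with no overlap. MBD3, a methyl-binding domain protein of the NuRD complex, had 39.2, 44.4 and 78.7 CPM in morulas, against 25.4, 15.2, 11.3 and 16.8 CPM in 8-cell embryos (1.65 ± 0.31, adjusted p = 0.00172). Within title code 020816 in SPIA, the log2 fold changes were -5.32 for DNMT1, -3.25 for UHRF1, 3.72 for TET1 and 2.41 for DNMT3L, none of them called.

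Imprinted genes, as known from mouse and human, went both ways. Of 19 tested, 2 rose and 3 fell, against 9.78% and 6.92% of all genes tested, so the higher count was near the background. IGF2R, the receptor that clears IGF2, had 122, 185 and 557 CPM in morulas, against 52.8, 39.4, 66.6 and 51.2 CPM in 8-cell embryos (2.46 ± 0.37, adjusted p = 0.000372 in edgeR), and the signalling adaptor GRB10 had 283, 275 and 202 CPM in morulas, against 116, 41.1, 75 and 93 CPM in 8-cell embryos (1.64 ± 0.27, adjusted p = 0.000655). The third gene to fall beside PLAGL1 and DLK1 was CDKN1C. DLK1, a Notch-like ligand, had no count in morulas, against 1.2, 48.9, 0.34 and 15.4 CPM in 8-cell embryos (at least 151-fold lower, adjusted p = 0.0106). CDKN1C, an inhibitor of cyclin-dependent kinases, had 0.0917, 0 and 0.131 CPM in morulas, against 4.25, 18.8, 0 and 6.41 CPM in 8-cell embryos. Both were at or near 0 in 020816_08, the 8-cell embryo low in cumulus markers, and highest in 020816_07. Without the other 3 8-cell embryos 3 imprinted genes were called higher and none lower, and DLK1 was not tested. CDKN1C lost its call without any one of those 3 embryos or any morula (adjusted p up to 0.118).

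Genes of mitochondrial energy metabolism were often higher in morulas. Of 28 genes of pyruvate dehydrogenase and the citrate cycle, 15 rose and none fell (median log2 fold change 1.20). PDHB, the E1 beta subunit of pyruvate dehydrogenase, had 356, 366 and 491 CPM in morulas, against 59.2, 61.7, 58.5 and 82.3 CPM in 8-cell embryos (2.63 ± 0.21, adjusted p = 1.88e-06 in edgeR). The E2 subunit DLAT had 435, 371 and 392 CPM in morulas, against 99.7, 71.2, 135 and 103 CPM in 8-cell embryos (1.96 ± 0.22, adjusted p = 2.24e-05) and the E3 subunit DLD had 252, 231 and 283 CPM in morulas, against 67.1, 106, 73.5 and 68.4 CPM in 8-cell embryos (1.70 ± 0.23, adjusted p = 0.000123). All 3 subunits separated the stages. The counts were 12 of 28 without the 3 8-cell embryos and 13 without morula 022916_01, where 1 gene was called lower. DESeq2 called 15 higher and 2 lower.

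In the respiratory chain, 11 of 22 tested subunits of complex I and 10 of 15 of complexes II to IV rose and none fell, and of 10 ATP synthase genes 5 rose and 1 fell. The medians were 1.12, 1.12 and 1.06 on the log2 scale. ATP5F1A, the alpha subunit of the ATP synthase catalytic head, had 866, 803 and 933 CPM in morulas, against 181, 154, 203 and 191 CPM in 8-cell embryos (2.25 ± 0.16, adjusted p = 3.08e-07 in edgeR). Its gamma subunit gene ATP5F1C had 253, 221 and 307 CPM in morulas, against 59.8, 49.4, 62.7 and 25.1 CPM in 8-cell embryos (2.40 ± 0.28, adjusted p = 3.26e-05). The gene that fell was ATP5IF1, the inhibitor that binds ATP synthase and stops it from hydrolysing ATP, with 46.3, 39.4 and 67.9 CPM in morulas, against 115, 98.8, 133 and 239 CPM in 8-cell embryos (-1.51 ± 0.30, adjusted p = 0.0030). The stages did not overlap for any of the 3. Among subunits of the chain, NDUFB8 (3.31 ± 0.72), NDUFS6 (2.20 ± 0.42) and NDUFA4 (1.68 ± 0.29), the succinate dehydrogenase subunit SDHA (1.86 ± 0.34) and the complex III subunit UQCRB (2.22 ± 0.44) were called with edgeR adjusted p between 0.000882 and 0.00586. Complex I counts were 12 of 22 without the 3 8-cell embryos and 7 of 22 without morula 022916_01, and those of complexes II to IV were 9 and 8 of 15.

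Beside GPD2, other genes of the routes that carry cytosolic electrons into mitochondria rose, and the list counts that follow include GPD2 itself. Of 10 tested genes of the glycerophosphate and malate-aspartate shuttles, 5 rose and none fell, also without the 3 8-cell embryos and without morula 022916_01. MDH2, mitochondrial malate dehydrogenase, had 145, 123 and 218 CPM in morulas, against 33.9, 36.2, 43.2 and 51.2 CPM in 8-cell embryos (1.98 ± 0.25, adjusted p = 6.13e-05 in edgeR). The aspartate aminotransferases GOT1 (2.55 ± 0.51, adjusted p = 0.00277) and GOT2 (1.59 ± 0.27, adjusted p = 0.000761) also rose. GOT1 was at 44.1, 8.5 and 51.7 CPM in morulas, against 5.77, 9.57, 4.98 and 3.34 CPM in 8-cell embryos, so morula 021016_03 lay within the 8-cell range.

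Glycolysis changed less evenly, with counts to be set against 9.78% higher and 6.92% lower over all genes tested. Of 17 tested genes, 5 rose and 1 fell (median 0.57), with 6 and 0 without the 3 8-cell embryos, 5 and 0 without morula 022916_01, and 5 and 2 with DESeq2. PFKL, the liver-type phosphofructokinase, had 36.8, 28.3 and 86.4 CPM in morulas, against 3.92, 6.73, 3.28 and 13 CPM in 8-cell embryos (2.91 ± 0.44, adjusted p = 0.000337 in edgeR). GAPDH (1.28 ± 0.22, adjusted p = 0.000973) and the hexokinases HK1 (1.45 ± 0.30, adjusted p = 0.00326) and HK2 (1.15 ± 0.21, adjusted p = 0.00139) rose by less. ENO2, the neuronal enolase, had 5.96, 2.79 and 0.262 CPM in morulas, against 39, 42.5, 14.8 and 35.3 CPM in 8-cell embryos (-3.44 ± 1.09, adjusted p = 0.0388) and lost its call without 020816_06, 020816_07, 112815_02, 021016_03 or 022916_01 (adjusted p up to 0.0914). By contrast, of 10 tested transporters of glucose and monocarboxylates, none rose and 3 fell (1 rose and 3 fell with DESeq2), also without the 3 8-cell embryos. SLC16A6, a monocarboxylate transporter family member, had 0.55, 6.01 and 3.02 CPM in morulas, against 70.8, 84.8, 129 and 132 CPM in 8-cell embryos (-5.05 ± 0.63, adjusted p = 5.88e-05). SLC16A1, the lactate and pyruvate transporter MCT1, had 579, 632 and 342 CPM in morulas, against 869, 871, 1262 and 1208 CPM in 8-cell embryos (-1.02 ± 0.23, adjusted p = 0.0069), and SLC2A4, the insulin-sensitive glucose transporter GLUT4, had 0, 0 and 0.656 CPM in morulas, against 6.53, 46.3, 43.7 and 35.1 CPM in 8-cell embryos (-7.19 ± 1.73, adjusted p = 0.010). No morula reached the lowest 8-cell embryo for any of the 3.

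**Figure D4:**
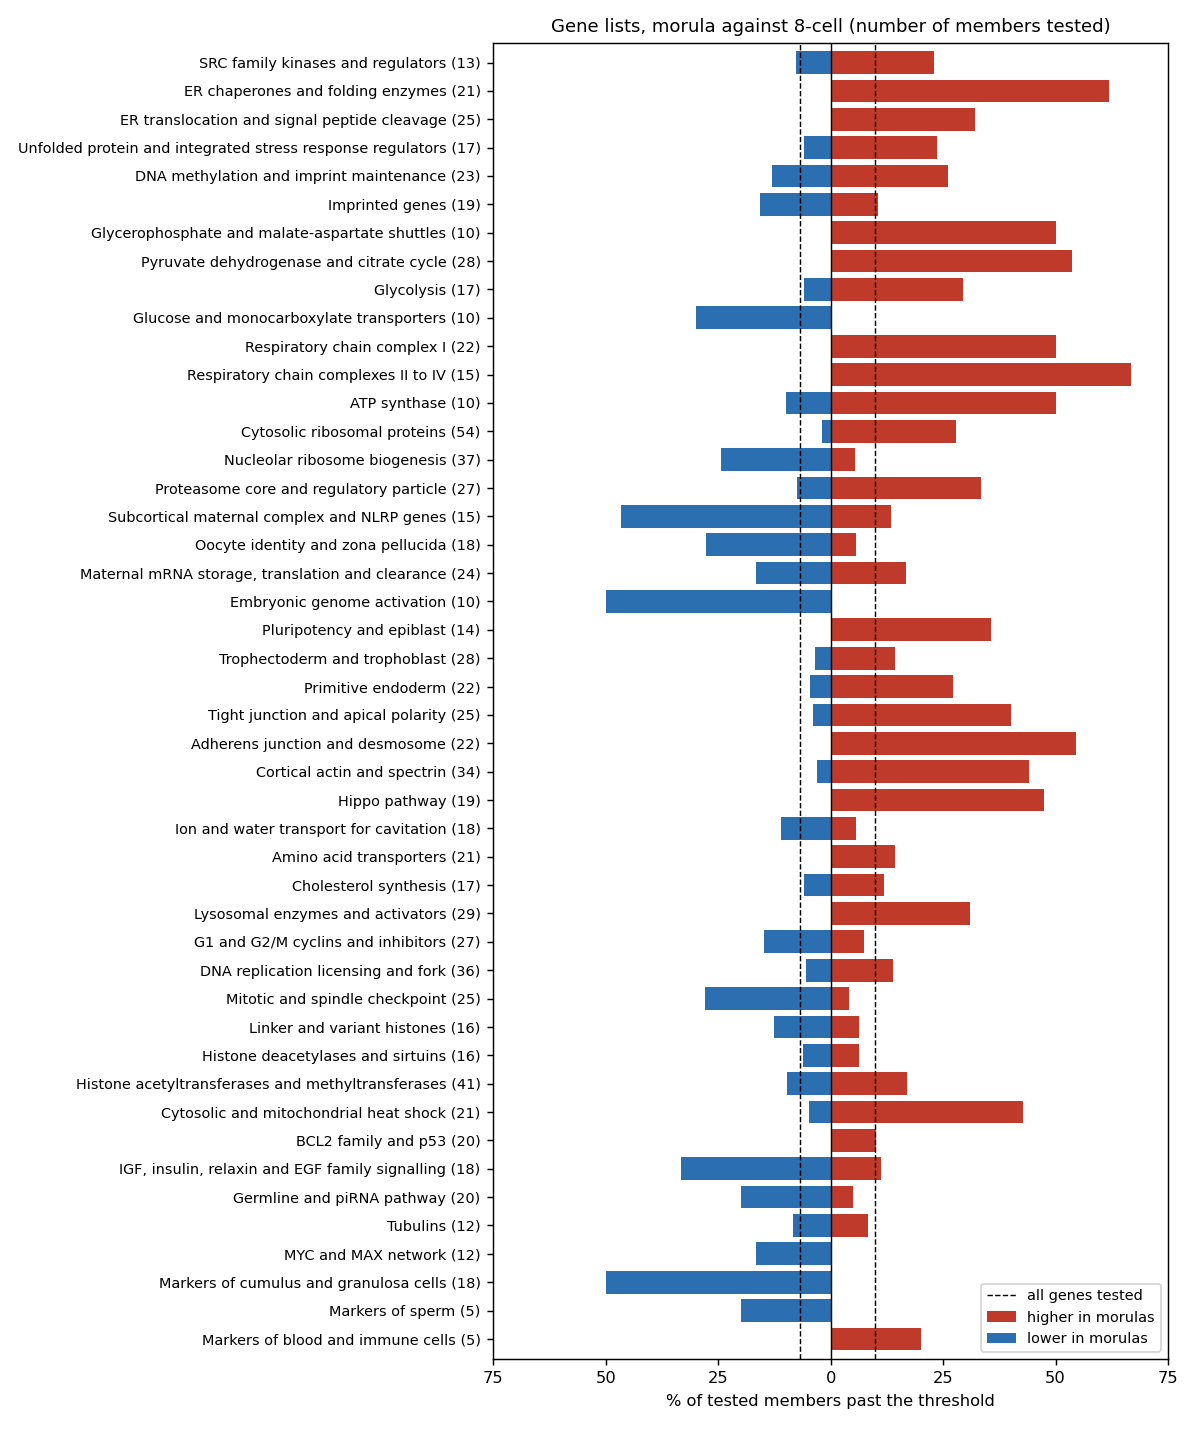
Share of the tested members of each of 46 gene lists called higher in morulas (red, right) or lower in morulas (blue, left) in percent, with the number tested in brackets; dashed lines mark the shares over all genes tested, 9.78% higher and 6.92% lower. The lists of respiratory chain complexes II to IV, endoplasmic reticulum chaperones and adherens junctions reach furthest to the right, and those of embryonic genome activation, the subcortical maternal complex and cumulus markers furthest to the left.

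Ribosome and proteasome genes also shifted. Of 54 tested cytosolic ribosomal protein genes, 15 rose and 1 fell (median 0.44), with 13 and 0 without the 3 8-cell embryos and 12 and 2 without morula 022916_01. RPL7 had 435, 386 and 233 CPM in morulas, against 86.8, 110.3, 60.9 and 95.9 CPM in 8-cell embryos (1.99 ± 0.25, adjusted p = 5.88e-05 in edgeR), RPL5 rose by less (1.10 ± 0.16, adjusted p = 0.00024), and FAU, which encodes a ubiquitin-like protein fused to RPS30, fell (-0.97 ± 0.25, adjusted p = 0.0157). Without morula 021016_02 FAU was not called (adjusted p = 0.0712). Nucleolar genes of ribosome biogenesis went the other way, with 2 of 37 higher and 9 lower (median -0.54). RRN3, an initiation factor of RNA polymerase I, had 45.8, 23.3 and 57.6 CPM in morulas, against 168, 129, 238 and 176 CPM in 8-cell embryos (-2.07 ± 0.33, adjusted p = 0.000457), while NOB1, which cuts the 18S precursor, had 91.8, 107 and 111 CPM in morulas, against 236, 231, 257 and 309 CPM in 8-cell embryos (-1.32 ± 0.22, adjusted p = 0.00059). WDR75 of the small-subunit processome fell as well (-1.17 ± 0.24, adjusted p = 0.00349). The 9 lower genes became 14 with DESeq2 and 5 without the 3 8-cell embryos or without morula 022916_01. Of 27 proteasome genes, 9 rose and 2 fell, led by the core subunit PSMA1 with 202, 209.8 and 194 CPM in morulas, against 83.8, 63.4, 49.1 and 79.6 CPM in 8-cell embryos (1.55 ± 0.24, adjusted p = 0.000337), and without the 3 8-cell embryos 5 rose and none fell. Near-identical copies of ribosomal protein genes may share counts.

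Lysosomal genes rose in 9 of 29 cases and none fell (10 without the 3 8-cell embryos, and 5 higher with 3 lower without morula 022916_01). CTSL, the protease cathepsin L, had 186, 161 and 317 CPM in morulas, against 10.9, 6.73, 17.5 and 14.7 CPM in 8-cell embryos (4.15 ± 0.51, adjusted p = 0.000105 in edgeR). NPC2, which moves cholesterol out of lysosomes, had 236, 358 and 566 CPM in morulas, against 18.9, 13, 13 and 71.9 CPM in 8-cell embryos (3.73 ± 0.56, adjusted p = 0.000745), and the membrane protein LAMP1 had 555, 367 and 668 CPM in morulas, against 139.6, 215, 157 and 159.5 CPM in 8-cell embryos (1.66 ± 0.29, adjusted p = 0.00117). The morulas were the higher group without overlap for all 3. Of 21 heat shock genes, 9 rose and 1 fell (7 and 1 without the 3 8-cell embryos, 8 and 3 without morula 022916_01). The HSP110 family chaperone HSPA4 had 658, 417 and 565 CPM in morulas, against 146, 109, 162 and 123 CPM in 8-cell embryos (2.02 ± 0.21, adjusted p = 1.28e-05) and the mitochondrial HSP70 HSPA9 had 1241, 2112 and 1048 CPM in morulas, against 532, 562, 406 and 595 CPM in 8-cell embryos (1.49 ± 0.22, adjusted p = 0.00029). DNAJB1, the stress-induced HSP40, fell, with 213, 126 and 153 CPM in morulas, against 438, 666, 633 and 378 CPM in 8-cell embryos (-1.69 ± 0.26, adjusted p = 0.000417).

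Genes of the first embryonic transcription were lower in morulas. Of 30 symbols listed for embryonic genome activation, 10 were tested, and none rose while 5 fell, with a median log2 fold change of -4.99. In 9 of the 10 every morula lay below every 8-cell embryo, against 12.4% of all genes tested. With only the 7 morula and 8-cell libraries in the fit, 9 of 10 were called lower, against 5.25% lower and 4.8% higher among the 12601 genes of that fit. TPRX1, a homeobox gene of the 8-cell stage, had 5.23, 14.7 and 5.9 CPM in morulas, against 421, 686, 619.9 and 397 CPM in 8-cell embryos (-5.96 ± 1.43, adjusted p = 0.0168 in edgeR). KHDC1L had 2.38, 1.17 and 0.656 CPM in morulas, against 115, 129, 145 and 88.2 CPM in 8-cell embryos (-6.36 ± 1.41, adjusted p = 0.00988). SLC34A2, a sodium-phosphate cotransporter, had 32.4, 13.8 and 40.4 CPM in morulas, against 366, 498, 512 and 234 CPM in 8-cell embryos (-3.80 ± 0.45, adjusted p = 4.7e-05), and the zinc finger gene ZNF280A had 42.4, 127 and 69.3 CPM in morulas, against 774, 785, 522 and 623 CPM in 8-cell embryos (-3.09 ± 0.70, adjusted p = 0.0109).

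KLF17, a Krüppel-like factor, had 7.34, 49.7 and 7.61 CPM in morulas, against 281, 367, 467 and 156 CPM in 8-cell embryos (-3.89 ± 1.06, adjusted p = 0.0278 in edgeR), and like TPRX1 it was not called without 021016_02 or 022916_01 (adjusted p up to 0.0917 and 0.0603). ZSCAN4, a zinc finger gene of genome activation, had 0.642, 19.1 and 8.0 CPM in morulas, against 439, 403, 517 and 496 CPM in 8-cell embryos. LEUTX, a paired-like homeobox gene that activates other 8-cell genes, had 0, 0 and 0.525 CPM in morulas, against 69.7, 129.8, 154 and 17.6 CPM in 8-cell embryos. The stages did not overlap for ZSCAN4 or LEUTX, yet neither passed the threshold (-5.67 ± 1.96, adjusted p = 0.0711 for ZSCAN4 and -9.02 ± 2.99, adjusted p = 0.0621 for LEUTX). The 6 expanded blastocysts, which share the estimate of the spread, ranged over 0 to 25.5 CPM for ZSCAN4 and 0 to 35.6 CPM for LEUTX. With only the 7 libraries, the adjusted p was 0.0136 for ZSCAN4 and 0.0012 for LEUTX. Without the 3 8-cell embryos high in cumulus markers 2 of the 10 genes were called lower, and without morula 022916_01, 4. In SPIA libraries of the same embryos 7 of 10 were lower, against 1.34% of 10393 genes. In SPIA of other embryos 0 of 9 were called lower, against 0.0613% of 9794 genes. Without the library labelled morula 022916_02, 2 of 9 were called lower, against 1.18% of 9334 genes. That library was left out after its levels were seen. Within title code 020816, 0 of 10 were called lower. There 0 of all 11244 genes tested were called lower, so this count says nothing about the list. The list medians in those 3 comparisons were -2.23, -3.67 and -2.65 on the log2 scale.

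Genes whose transcripts the oocyte stores were lower in part, with exceptions inside a family. Of 15 tested genes of the subcortical maternal complex and its NLRP relatives, 7 fell and 2 rose (median -2.61). NLRP4 had 57.3, 122 and 57.5 CPM in morulas, against 896, 1598, 1292 and 1120.4 CPM in 8-cell embryos (-3.96 ± 0.91, adjusted p = 0.0135 in edgeR), and NLRP9 had 55.4, 112 and 69.7 CPM in morulas, against 432, 909.5, 739 and 260.0 CPM in 8-cell embryos (-2.89 ± 0.44, adjusted p = 0.000439). NLRP5, the maternal-effect gene MATER of the subcortical complex, had 6.42, 5.86 and 9.18 CPM in morulas, against 51.5, 54, 64.6 and 92.6 CPM in 8-cell embryos (-3.20 ± 0.85, adjusted p = 0.0173), and NLRP13 had 9.63, 57.2 and 11.9 CPM in morulas, against 109.7, 204, 160.5 and 166 CPM in 8-cell embryos (-2.61 ± 0.61, adjusted p = 0.00846). All morulas lay below all 8-cell embryos for these 4 genes. NLRP2 and NLRP7 were the exceptions and rose. NLRP2, in which maternal mutations disturb imprinting in humans, had 1717, 1210.2 and 3527 CPM in morulas, against 333, 312, 295 and 398 CPM in 8-cell embryos (2.68 ± 0.27, adjusted p = 1.02e-05). NLRP7, mutated in familial hydatidiform mole, had 1507, 2009.6 and 4169 CPM in morulas, against 107, 138, 115 and 653 CPM in 8-cell embryos (3.34 ± 0.61, adjusted p = 0.0034). Both were called in every fit that left out a library or the 3 8-cell embryos, and both were higher in morula 022916_01 than in the other morulas. NLRP4 was lost without 021016_02 or 022916_01 (adjusted p up to 0.0538) and NLRP5 without 021016_02 or 021016_03 (up to 0.0641). Of the 15, 1 was called lower and 2 higher without the 3 8-cell embryos, and 4 lower and 2 higher without morula 022916_01. Reads of close NLRP paralogs may be shared.

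Of 18 tested genes of oocyte identity and the zona pellucida, 5 fell and 1 rose, against 6.92% and 9.78% of all genes tested, while 11 lay below the 8-cell range in every morula, against 12.4%. ZP3, a zona pellucida protein, had 12.6, 6.3 and 5.38 CPM in morulas, against 74.4, 97, 109 and 58.8 CPM in 8-cell embryos (-3.38 ± 0.90, adjusted p = 0.0193 in edgeR). ACCSL had 31.3, 56.6 and 29.3 CPM in morulas, against 185, 655, 351 and 312 CPM in 8-cell embryos (-3.27 ± 0.74, adjusted p = 0.0104), and the homeobox gene OTX2 had 215, 370.1 and 38.4 CPM in morulas, against 1894, 3576, 3287 and 946 CPM in 8-cell embryos (-3.55 ± 1.02, adjusted p = 0.036). DAZL, an RNA-binding protein of germ cells, had 21.8, 22.3 and 9.18 CPM in morulas, against 67.6, 91.1, 70.3 and 71 CPM in 8-cell embryos (-2.08 ± 0.59, adjusted p = 0.0229). Only ACCSL of these 4 stayed called without any single library. ZP3 lost its call without 021016_03 or 022916_01, and DAZL without 020816_07 or 022916_01. OTX2 lost its call without any morula, 020816_07 or 020816_08 (adjusted p up to 0.0707, 0.0786 and 0.0968 for the 3 genes). Without morula 022916_01 1 gene was lower and 0 were higher, and without the 3 8-cell embryos 0 were lower and 1 was higher. DESeq2 called 11 lower and 1 higher.

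Germline and piRNA genes numbered 20, of which 4 fell and 1 rose, against 6.92% and 9.78% of all genes tested. The lower genes numbered 1 without the 3 8-cell embryos, 2 without morula 022916_01 and 8 with DESeq2, and none rose without the 3 8-cell embryos. TDRD1, a tudor protein of the piRNA pathway, had 5.5, 7.33 and 4.72 CPM in morulas, against 123, 88.6, 167 and 101 CPM in 8-cell embryos (-4.36 ± 0.85, adjusted p = 0.0033 in edgeR), and PIWIL3, a PIWI protein of oocytes, had 9.44, 5.13 and 7.21 CPM in morulas, against 57.8, 47.3, 58.5 and 62.5 CPM in 8-cell embryos (-2.95 ± 0.73, adjusted p = 0.0109). Regulators of stored mRNA went both ways, with 4 of 24 higher and 4 lower (2 and 2 without the 3 8-cell embryos, 3 and 6 with DESeq2). PATL2, a translational repressor of oocytes, had 2.2, 1.91 and 1.57 CPM in morulas, against 21, 37, 17.5 and 25.5 CPM in 8-cell embryos (-3.73 ± 0.83, adjusted p = 0.00555), and the decapping enzyme DCP2 had 63.6, 58.6 and 70.8 CPM in morulas, against 191, 141, 246 and 165 CPM in 8-cell embryos (-1.53 ± 0.26, adjusted p = 0.000711). The deadenylase CNOT7 (1.28 ± 0.24, adjusted p = 0.00204) and the P-body helicase DDX6 (1.36 ± 0.31, adjusted p = 0.0073) rose. BTG4, the adaptor that brings the deadenylase to maternal mRNA, had 14.3, 28.7 and 7.35 CPM in morulas, against 25.1, 127, 77 and 12 CPM in 8-cell embryos, overlapped between stages and was not called (adjusted p = 0.0974).

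**Figure D5:**
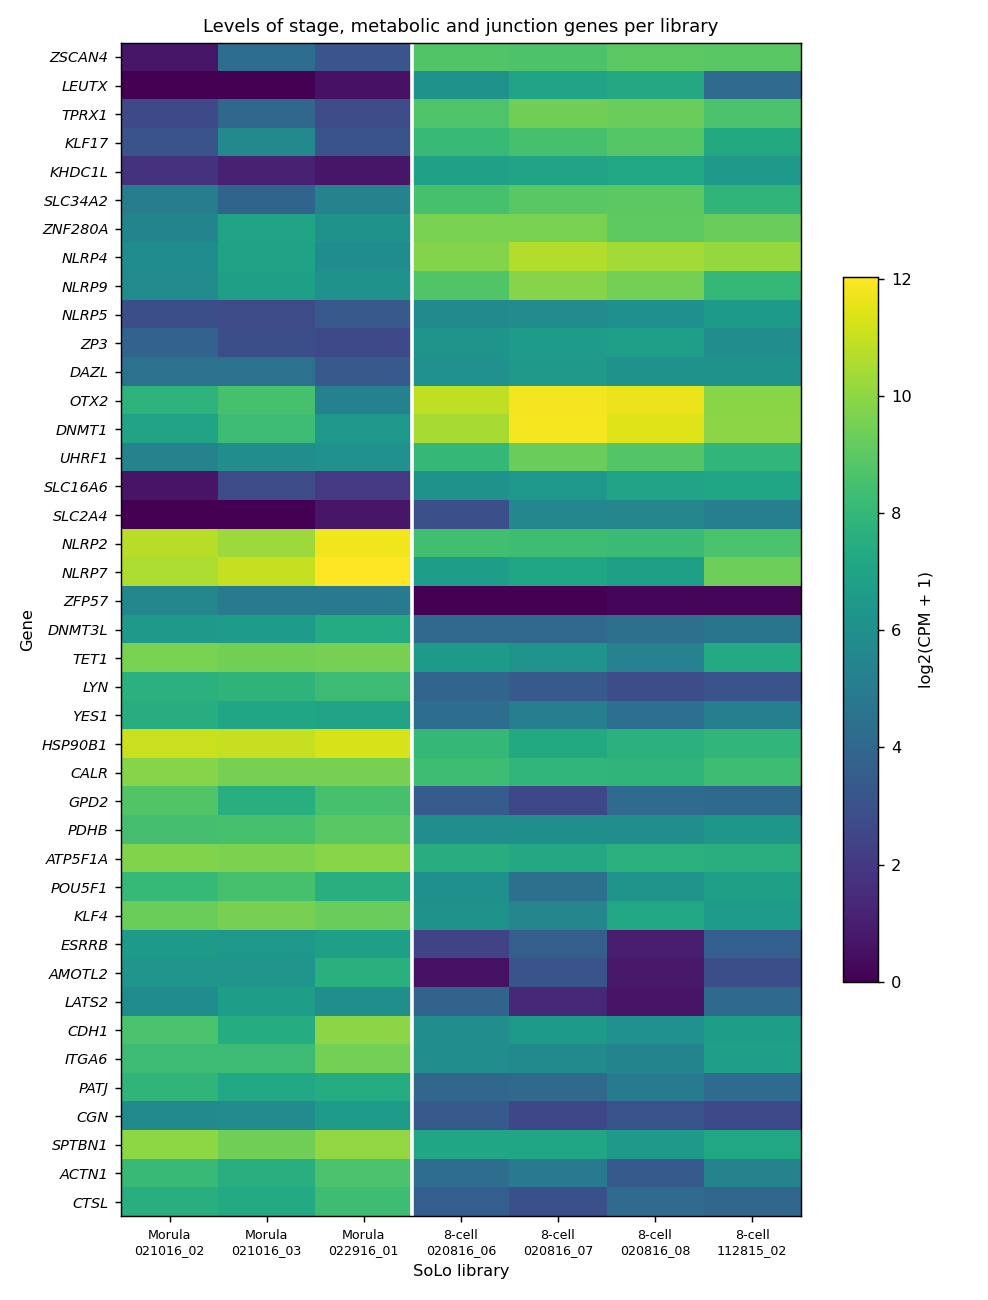
Levels of 41 named genes as log2(CPM + 1) (colour) in the 3 morulas (left of the white line) and the 4 8-cell embryos (right), with genome activation and oocyte genes at the top and genes higher in morulas at the bottom. ZSCAN4 to SLC2A4 are darker in the morulas than in the 8-cell embryos, and NLRP2 to CTSL are lighter in the morulas.

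Genes of the pluripotent epiblast rose in 5 of 14 cases and none fell (median 1.83). POU5F1 (OCT4) had 268, 363 and 194 CPM in morulas, against 64.6, 20.7, 73.6 and 112 CPM in 8-cell embryos (2.02 ± 0.44, adjusted p = 0.00617 in edgeR). KLF4 had 640.1, 743 and 628 CPM in morulas, against 69.5, 43.7, 141 and 96.1 CPM in 8-cell embryos (2.94 ± 0.45, adjusted p = 0.000585), and the orphan nuclear receptor ESRRB had 94, 83.3 and 112 CPM in morulas, against 4.57, 11.6, 0.905 and 11 CPM in 8-cell embryos (3.78 ± 0.53, adjusted p = 0.000259). The morulas lay above the 8-cell embryos without overlap for all 3. DPPA4 had 35.9, 16.6 and 137 CPM in morulas, against 13.7, 4.93, 0 and 3.07 CPM in 8-cell embryos (3.53 ± 1.00, adjusted p = 0.0323) and lost its call without 020816_07, 112815_02 or 022916_01 (adjusted p up to 0.125). NANOG had 6.6, 32 and 59.7 CPM in morulas, against 5.66, 1.23, 0.113 and 27.1 CPM in 8-cell embryos and was not called (adjusted p = 0.254). The count was 5 without the 3 8-cell embryos, and 3 higher with 2 lower without morula 022916_01.

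Trophectoderm genes were uneven among the morulas, and their counts stand against 9.78% higher and 6.92% lower over all genes tested. Of 28 tested, 4 rose and 1 fell (7 and 2 with DESeq2, 3 and 0 without the 3 8-cell embryos, 3 and 2 without morula 022916_01). ELF3, an epithelial ETS factor, had 8.71, 8.79 and 93.3 CPM in morulas, against 4.25, 0.284, 0.226 and 0.935 CPM in 8-cell embryos (4.68 ± 1.00, adjusted p = 0.00795 in edgeR) and MSX2, a homeobox gene, had 38.7, 52.3 and 13.8 CPM in morulas, against 3.27, 1.99, 3.96 and 15.4 CPM in 8-cell embryos (2.51 ± 0.63, adjusted p = 0.0126), with morula 022916_01 inside the 8-cell range. TP63, a p53 family factor of epithelial stem cells, fell, with 1.83, 8.5 and 4.85 CPM in morulas, against 17.2, 51.2, 35.9 and 22.6 CPM in 8-cell embryos (-2.65 ± 0.82, adjusted p = 0.0358). The calls of S100P and KRT7 rest on morula 022916_01. S100P, a calcium-binding protein of trophoblast, had 5.69, 3.37 and 411 CPM in morulas, against 0.544, 0.569, 1.02 and 7.88 CPM in 8-cell embryos and KRT7, a simple epithelial keratin, had 0, 0.147 and 4.46 CPM in morulas, against 0, 0, 0.113 and 0 CPM in 8-cell embryos. GATA2, a trophoblast transcription factor, had 0.367, 0.586 and 222 CPM in morulas, against 0.109, 0.284, 0.566 and 6.28 CPM in 8-cell embryos (adjusted p = 0.064), KRT18 had 50.2, 4.25 and 785 CPM in morulas, against 3.92, 5.31, 1.13 and 47.8 CPM in 8-cell embryos (0.0684) and GATA3 had 6.97, 2.49 and 57.2 CPM in morulas, against 4.9, 7.77, 7.02 and 3.88 CPM in 8-cell embryos (0.0771), and none of these 3 was called. Without morula 022916_01 the log2 fold change was -1.86 for GATA2, -0.30 for GATA3 and 0.93 for KRT18, and the adjusted p of S100P was 0.48 and that of KRT7 0.765. The expanded blastocysts ranged over 264 to 499 CPM for GATA2 and 931 to 1613 CPM for KRT18. S100P was also lost without any 8-cell embryo of code 020816, KRT7 without 020816_06, 020816_07 or 112815_02, and TP63 without 020816_07, 020816_08, 021016_02 or 022916_01 (adjusted p of TP63 up to 0.119).

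Of 22 tested genes of the primitive endoderm, 6 rose and 1 fell, against 9.78% higher and 6.92% lower over all genes tested. Without morula 022916_01, 2 rose and 1 fell, near the shares of 7.16% and 5.69% over the 15120 genes of that fit. The median log2 fold change was 1.90, and 4.01 without the 3 8-cell embryos. LAMC1, the laminin gamma chain of basement membranes, had 216, 207 and 821 CPM in morulas, against 23.8, 19.2, 28.1 and 51.3 CPM in 8-cell embryos (3.76 ± 0.45, adjusted p = 9.62e-05 in edgeR). LAMB1, the beta chain, had 327, 91.5 and 777 CPM in morulas, against 47.6, 29.8, 36.3 and 132 CPM in 8-cell embryos (2.70 ± 0.62, adjusted p = 0.0119) and GATA6 had 199, 254 and 317 CPM in morulas, against 82.2, 86.5, 78.3 and 191 CPM in 8-cell embryos (1.23 ± 0.33, adjusted p = 0.0163). GATA4, an endoderm factor, had 0.0917, 0 and 29.3 CPM in morulas, against 4.46, 8.53, 0.113 and 15.5 CPM in 8-cell embryos, with morula 022916_01 the highest library, and was not called (adjusted p = 0.888). Without that morula, LAMB1 and GATA6 were not called (adjusted p 0.0509 and 0.059), while LAMC1 was (1.08e-05).

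Genes of cell adhesion and polarity were called higher more often than lower. Of 22 tested genes of adherens junctions and desmosomes, 12 rose and none fell (median 1.53), with 11 without the 3 8-cell embryos and 9 without morula 022916_01. CDH1, E-cadherin, had 387, 175 and 965 CPM in morulas, against 58.4, 92.1, 65.8 and 103 CPM in 8-cell embryos (2.67 ± 0.41, adjusted p = 0.000558 in edgeR). Plakoglobin, JUP, had 168, 118 and 297 CPM in morulas, against 68.8, 45.1, 56.3 and 28.1 CPM in 8-cell embryos (1.97 ± 0.32, adjusted p = 0.000591), the laminin receptor subunit ITGA6 had 299.7, 299 and 719 CPM in morulas, against 59, 51.9, 41.5 and 111 CPM in 8-cell embryos (2.74 ± 0.34, adjusted p = 5.88e-05) and the desmosomal plakophilin PKP3 had 4.03, 4.84 and 6.43 CPM in morulas, against 0, 0.0948, 0 and 0.134 CPM in 8-cell embryos, 89.6-fold (95% counting interval 24.3 to 748) higher. All morulas lay above all 8-cell embryos for these 4. Of 25 tight junction and apical polarity genes, 10 rose and 1 fell (9 and 1 without the 3 8-cell embryos, 7 and 2 without morula 022916_01). PATJ, a scaffold of the Crumbs polarity complex, had 229, 141 and 173 CPM in morulas, against 14.7, 16.9, 28.6 and 17.4 CPM in 8-cell embryos (3.22 ± 0.28, adjusted p = 2.67e-06). CGN, cingulin, had 53.5, 54.4 and 98.3 CPM in morulas, against 9.15, 5.12, 7.36 and 5.21 CPM in 8-cell embryos (3.35 ± 0.33, adjusted p = 6.79e-06). The ZO-1 gene TJP1 rose (1.40 ± 0.19, adjusted p = 0.000105), whereas the claudin CLDN12 fell, with 44.8, 70.5 and 44.2 CPM in morulas, against 90.8, 123, 157 and 141 CPM in 8-cell embryos (-1.27 ± 0.27, adjusted p = 0.00459).

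Of 34 tested actin and spectrin genes of the cell cortex, 15 rose and 1 fell (13 and 0 without the 3 8-cell embryos, 13 and 1 without morula 022916_01). SPTBN1, beta-II spectrin, had 1001, 689.5 and 1079 CPM in morulas, against 139, 135, 87.2 and 148 CPM in 8-cell embryos (2.86 ± 0.24, adjusted p = 1.88e-06 in edgeR). The crosslinker ACTN1 (3.53 ± 0.40, adjusted p = 3.94e-05) and the Arp2/3 subunit ARPC2 (1.90 ± 0.18, adjusted p = 5.37e-06) rose too. ACTN1 was at 279, 193 and 390.4 CPM in morulas, against 18.8, 29.9, 9.62 and 41.2 CPM in 8-cell embryos. The nonmuscle myosin MYH10 fell, with 51.5, 40.6 and 108 CPM in morulas, against 142, 245, 172 and 228 CPM in 8-cell embryos (-1.56 ± 0.35, adjusted p = 0.00619).

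Of 19 tested genes of the Hippo pathway, which reads cell contact and polarity through YAP, 9 rose and none fell (7 without the 3 8-cell embryos, and 5 higher with 1 lower without morula 022916_01). AMOTL2, an angiomotin that binds YAP at junctions, had 76.4, 75.3 and 195 CPM in morulas, against 0.435, 7.77, 0.792 and 6.41 CPM in 8-cell embryos (4.90 ± 0.78, adjusted p = 0.00137 in edgeR). AMOT had 110.0, 289 and 146 CPM in morulas, against 22.4, 34, 28.7 and 65.2 CPM in 8-cell embryos (2.27 ± 0.38, adjusted p = 0.000763). The kinase LATS2 had 57.5, 102 and 62.7 CPM in morulas, against 13.3, 1.61, 0.566 and 16.7 CPM in 8-cell embryos (3.21 ± 0.78, adjusted p = 0.0135), and its upstream activator WWC2 had 136, 141 and 74.8 CPM in morulas, against 18.1, 36, 14.3 and 24.1 CPM in 8-cell embryos (2.34 ± 0.33, adjusted p = 0.00016). Morulas lay above 8-cell embryos without overlap for all 4. In the other SPIA embryos AMOTL2 had 35.8, 60.2, 97.9, 10.2, 153, 133, 54.4 and 10.4 CPM in 8 morulas, against 0, 0.0751, 0, 0.739 and 0 CPM in 5 8-cell embryos. It was called there too (log2 fold change 8.53, adjusted p = 0.0318), where 3 genes in all (0.0306% of 9794) were called higher.

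Counts in the transporter lists stand against shares of 9.78% higher and 6.92% lower over all genes tested. Of 18 tested ion and water transport genes of the kind used to form the blastocoel, 1 rose and 2 fell. Without the 3 8-cell embryos 3 were higher and none lower, without morula 022916_01 none was higher and 1 lower, and with DESeq2 1 was higher and 4 lower. The aquaporin AQP3 fell, with 37.9, 94.5 and 20.6 CPM in morulas, against 238, 227, 316 and 321 CPM in 8-cell embryos (-2.44 ± 0.69, adjusted p = 0.0285 in edgeR), and lost its call without 020816_08, 021016_02 or 022916_01 (adjusted p up to 0.103). Of 21 amino acid transporters 3 rose and none fell, while 1 fell with DESeq2 or without morula 022916_01, and 2 rose and 1 fell without the 3 8-cell embryos. The creatine transporter SLC6A8 had 339.8, 982 and 536 CPM in morulas, against 64.3, 40.8, 24.8 and 77.6 CPM in 8-cell embryos (3.58 ± 0.40, adjusted p = 3.47e-05) and the glycine transporter SLC6A9 had 4.58, 20.5 and 3.41 CPM in morulas, against 0.653, 0, 0 and 0.267 CPM in 8-cell embryos (5.29 ± 1.27, adjusted p = 0.00929). Cholesterol synthesis had 2 of 17 genes higher and 1 lower (3 and 3 with DESeq2, 3 and 0 without the 3 8-cell embryos), and HMGCS1, which makes its precursor HMG-CoA, had 132, 62.4 and 575 CPM in morulas, against 40.6, 31, 39.5 and 72.7 CPM in 8-cell embryos (2.48 ± 0.59, adjusted p = 0.014). HMGCS1 was not called without morula 022916_01 (adjusted p = 0.0577), a fit in which 0 genes of the list were higher and 3 lower.

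Mitotic genes were more often called lower than higher. Over all genes tested, 6.92% were lower and 9.78% higher. Of 25 mitotic and spindle checkpoint genes, 7 fell and 1 rose (5 and 1 without the 3 8-cell embryos). TPX2, which nucleates spindle microtubules, had 253, 279 and 239.8 CPM in morulas, against 636, 1101, 1171 and 744 CPM in 8-cell embryos (-1.83 ± 0.23, adjusted p = 5.84e-05 in edgeR), securin, PTTG1, had 112, 147 and 82.1 CPM in morulas, against 216, 359, 329.8 and 228 CPM in 8-cell embryos (-1.32 ± 0.26, adjusted p = 0.00263), and the kinase PLK3 had 6.51, 22.7 and 3.54 CPM in morulas, against 73.6, 69, 102 and 104 CPM in 8-cell embryos (-3.00 ± 0.66, adjusted p = 0.00551). Every morula was below every 8-cell embryo for these 3. Among 27 cyclins and inhibitors 2 rose and 4 fell (3 and 3 without the 3 8-cell embryos, 3 and 2 without morula 022916_01, 2 and 8 with DESeq2). CDC25B, the phosphatase that starts mitosis, had 15.8, 18.8 and 21.1 CPM in morulas, against 117, 83.5, 96.5 and 96.9 CPM in 8-cell embryos (-2.41 ± 0.39, adjusted p = 0.000588), and cyclin G1, CCNG1, a p53 target, had 461, 172 and 306 CPM in morulas, against 54.2, 103, 87.6 and 89.3 CPM in 8-cell embryos (1.91 ± 0.29, adjusted p = 0.000337). Of 36 replication genes 5 rose and 2 fell (5 and 3 without the 3 8-cell embryos, 3 and 1 without morula 022916_01), whereas DESeq2 called 4 higher and 7 lower. LIG1, DNA ligase 1, had 78.9, 41.5 and 103 CPM in morulas, against 9.04, 16.9, 13.2 and 15.1 CPM in 8-cell embryos (2.45 ± 0.31, adjusted p = 7.2e-05) and the helicase subunit MCM3 rose (1.04 ± 0.22, adjusted p = 0.00394), while RPA2, which coats single-stranded DNA, had 25.1, 16.3 and 23.7 CPM in morulas, against 123, 124, 123 and 86.1 CPM in 8-cell embryos (-2.39 ± 0.29, adjusted p = 5.12e-05). The tubulin list of 12 genes had 1 higher and 1 lower, TUBA1A, with 1011, 1177 and 760.3 CPM in morulas, against 1929, 2714, 2466 and 1671 CPM in 8-cell embryos (-1.16 ± 0.21, adjusted p = 0.00127), and 4 higher and 1 lower without the 3 8-cell embryos, 1 and 3 without morula 022916_01, and 1 and 2 with DESeq2.

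Chromatin lists had calls in both directions, to be set against 9.78% higher and 6.92% lower over all genes tested. Of 41 histone acetyltransferases, methyltransferases and related genes, 7 rose and 4 fell (5 and 4 without the 3 8-cell embryos, 4 and 3 without morula 022916_01). SUZ12, a core subunit of Polycomb complex 2, had 1011, 951 and 841 CPM in morulas, against 427, 296, 347 and 319 CPM in 8-cell embryos (1.43 ± 0.19, adjusted p = 9.64e-05 in edgeR), and the histone demethylase KDM5B had 732, 623 and 587 CPM in morulas, against 1129, 1169, 1590.4 and 1465 CPM in 8-cell embryos (-1.05 ± 0.19, adjusted p = 0.00159). Among 16 linker and variant histone genes 1 rose and 2 fell (1 and 1 without the 3 8-cell embryos, 2 and 2 without morula 022916_01, 2 and 3 with DESeq2). MACROH2A1, a variant of repressed chromatin, had 73.4, 106 and 90.0 CPM in morulas, against 18.3, 15.3, 5.32 and 15 CPM in 8-cell embryos (2.74 ± 0.33, adjusted p = 4.98e-05), and the histone chaperone ASF1B had 19.3, 1.47 and 19.9 CPM in morulas, against 52.8, 87.3, 68.1 and 40.8 CPM in 8-cell embryos (-2.19 ± 0.60, adjusted p = 0.0201), which was lost without 020816_07 (adjusted p = 0.0502). Of 16 deacetylases, HDAC7 rose (3.41 ± 0.94, adjusted p = 0.0197) and HDAC4 fell (-1.92 ± 0.46, adjusted p = 0.00878), and without the 3 8-cell embryos 3 were higher and 1 lower. Among 20 genes of the BCL2 family and p53, 2 rose and none fell with edgeR, against 4 higher and 4 lower with DESeq2, 4 and 1 without the 3 8-cell embryos and 1 and none without morula 022916_01. The 2 edgeR calls were BBC3 and XIAP, an inhibitor of caspases, with 37.7, 75.8 and 72.4 CPM in morulas, against 28.6, 3.32, 6.9 and 20.6 CPM in 8-cell embryos (2.06 ± 0.59, adjusted p = 0.0263). XIAP lost its call without 020816_08, 021016_03 or 022916_01 (adjusted p up to 0.0668). The MYC and MAX network had 2 of 12 genes lower and none higher with edgeR, against 4 lower and none higher with DESeq2, and 1 lower without the 3 8-cell embryos.

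Cumulus and granulosa cell markers formed a group of their own among the lower genes. Of 18 tested, 9 fell and none rose (11 lower and none higher with DESeq2, 6 lower without morula 022916_01). The median log2 fold change was -3.64 over the 18, and 1.46 over 16 without the 3 8-cell embryos. Those embryos were set apart by the sum of these same markers, so the fit without them is no test of the list. VCAN, the matrix proteoglycan versican, had 0.734, 3.52 and 1.31 CPM in morulas, against 471, 2088, 3.06 and 942 CPM in 8-cell embryos (-8.92 ± 1.76, adjusted p = 0.00618 in edgeR), and its log2 fold change without the 3 embryos was -0.73. AREG, an EGF-like ligand, had 0 CPM in all morulas, against 29.1, 30.1, 0.226 and 204 CPM in 8-cell embryos, and INHA, the inhibin alpha subunit, had 0, 0 and 0.394 CPM in morulas, against 13.3, 37.4, 0 and 37.3 CPM in 8-cell embryos. The hyaluronan synthase HAS2 had 0.825, 1.03 and 0.394 CPM in morulas, against 3.92, 0, 8.72 and 17.9 CPM in 8-cell embryos and was not called (adjusted p = 0.159). SERPINE2, a protease inhibitor, had 37.8, 87.7 and 47.1 CPM in morulas, against 174, 252, 165 and 192 CPM in 8-cell embryos (-1.77 ± 0.35, adjusted p = 0.00277) and was above every morula in all 4 8-cell embryos, 020816_08 included. INHA was not called without 020816_07, 021016_02 or 021016_03 (adjusted p up to 0.0951).

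Growth factor signalling followed the same libraries in part, but IGFBP5 and IGFBP4, named below, also count as cumulus and granulosa cell markers. Of 18 tested genes of the IGF, insulin, relaxin and EGF families, 2 rose and 6 fell (2 and 10 with DESeq2, 1 and 5 without morula 022916_01). The median log2 fold change was -2.82 over the 18, and -0.72 over 16 without the 3 8-cell embryos. Those embryos were set apart by cumulus markers, so the fit without them is no independent check. IGFBP5, an IGF-binding protein, had 5.96, 1.76 and 5.25 CPM in morulas, against 116, 582, 27.4 and 275 CPM in 8-cell embryos (-5.83 ± 0.96, adjusted p = 0.00148 in edgeR), and 8-cell embryo 020816_08 was the lowest 8-cell embryo but above every morula. IGFBP4 had 0 CPM in morulas, against 7.95, 19.3, 0.34 and 37.7 CPM in 8-cell embryos, and IGFBP3 had 0.0917, 0 and 2.75 CPM in morulas, against 18.8, 16.4, 9.51 and 50.2 CPM in 8-cell embryos (-4.63 ± 1.23, adjusted p = 0.0167). Without morula 021016_02 IGFBP3 was not called (adjusted p = 0.0526), and without the 3 8-cell embryos IGFBP5 had a log2 fold change of -2.64 (adjusted p = 0.081). Of 5 measured blood and immune markers 1 rose, ITGAM, a leukocyte integrin, with 12.2, 5.42 and 1.57 CPM in morulas, against 0.109, 0, 0 and 0.134 CPM in 8-cell embryos (a ratio of 129-fold (95% counting interval 35.3 to 1077), adjusted p = 0.0119), and of 5 sperm markers 1 fell. None of the blood, immune or sperm markers was called without the 3 8-cell embryos, and DESeq2 called 2 of the blood and immune markers lower.

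Embryos outside the 7 give a comparison that shares no embryo with the SoLo one. In SPIA, 8 other morulas and 5 other 8-cell embryos gave 3 genes higher (0.0306%) and 6 lower (0.0613%) of 9794 tested. Of the 1388 genes higher in SoLo, 1169 were tested there and 956 (81.8%) had the same sign, and of the 983 lower genes, 713 of 800 (89.1%) did. Over all 9696 genes tested in both, 68.5% had the same sign. One of the 8, the library labelled morula 022916_02, had levels of an 8-cell embryo for many stage genes. It had 306 CPM of LEUTX, against 0 to 10.0 CPM in the other 7 morulas and 37.9 to 352 CPM in the 5 8-cell embryos. Its NLRP7 was 77.6 CPM, against 711 to 1869 CPM in the other 7 morulas. Morula 022916_03, kept in these fits, was also high for some stored transcripts, with 2139 CPM of DNMT1, 1974 CPM of OTX2 and 486 CPM of DAZL. Its LEUTX (0.922 CPM) and NLRP7 (1516 CPM) stood with the other morulas. Without 022916_02, 50 genes were higher (0.536%) and 110 lower (1.18%) of 9334 tested.

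The fit without 022916_02 was chosen after the levels of that library were seen, those of LYN, GPD2 and LEUTX among them. Its calls of stage genes are therefore no independent check. Genes named above that were called in it stood in several groups. Among those higher were LYN, GPD2, AMOTL2 (8.87, adjusted p = 0.013 in edgeR), NGEF (7.76, 0.0445), SPTBN1 (2.73, 0.0426), ACTN1 (5.42, 0.0237), CTSL (4.98, 0.0352), KLF4 (3.69, 0.0364) and ATP5F1A (3.01, 0.0185). Among those lower were DNMT1 (-4.42, adjusted p = 0.0215), UHRF1 (-4.59, 0.0243), NLRP4 (-3.90, 0.0197), NLRP9 (-3.41, 0.0475), LEUTX (-6.41, 0.013), SLC34A2 (-3.99, 0.0407) and IGFBP5 (-5.13, 0.0364). In each pair the first value is the log2 fold change, morula minus 8-cell. Genes named above with the opposite sign both with and without 022916_02 were ZFP57, PDIA6 (-0.45 with it), GOT2 (-0.74), CNOT7 (-0.70), ESRRB (-0.26), HMGCS1 (-0.28) and HDAC4 (1.97). None of these 7 was called there in either direction.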

How the data were processed

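RNA of single rhesus monkey embryos was measured as read counts per Ensembl gene. The authors deposited raw counts, whole numbers per identifier for 26309 identifiers, in one table of all libraries. HISAT2 and DESeq2 are named in the submitters' processing notes, with no version. No source used here gives the counting tool, its settings, its use of strand or the genome build, so reads of overlapping genes on opposite strands cannot be told apart. Groups come from the titles. A column was used only where its name matched a title, and 3 columns that match no title were left out. Symbols were matched to 15078 identifiers, and 16 symbols shared by several identifiers were not used in the gene lists.

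Counts were fitted with edgeR 4.0.16 (quasi-likelihood, robust) in R 4.3.3, with trimmed-mean scaling, filterByExpr and Benjamini-Hochberg adjustment over the 14196 genes tested. The 13 SoLo libraries, 6 expanded blastocysts included, shared one estimate of the spread, and the contrast was morula minus 8-cell. A gene is called at an adjusted p under 0.05. Fold changes are log2 values ± standard error. Without statements on separate parents, p-values measure the spread between these libraries. Bounds use a floor of 3 counts over a group, and 95% intervals (Clopper-Pearson, from the counts of both groups) cover counting error only. Alternatives were other scalings and filters, DESeq2 1.42.0, limma 3.58.1 (voom), each library left out, the 3 8-cell embryos high in cumulus markers left out, SPIA libraries and both kits with the embryo as a block. SPIA and SoLo libraries with the same title code and number were taken as 1 embryo. Deviations from the group means correlated at 0.114 to 0.336 within the 7 pairs, and each library correlated best with its own partner. The scripts were tested on simulated data.

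Named genes are the 12 largest changes in each direction among called, named, non-overlapping genes with at least 1 CPM in every library of the higher group, up to 4 called members per list and direction by adjusted p, and fixed stage and cumulus genes. A few genes this rule names are not reported here. Members and lists were chosen with earlier results of these data known.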

Additional observations from a re-analysis of the deposited data

Results flagged for a closer look

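Of 173 genes checked, 14 had an 8-cell library far from the other 3, with a gap to the nearest library, divided by the group's range on the log2(CPM + 1) scale, above Dixon's 95% critical value for 4 samples. Chance alone gives about 1 in 20 such groups. In 6 of them a single 8-cell library held the only counts, which fixes the ratio at 1.000 however low the level. These were HS3ST3A1 in 020816_06 (0.109 CPM), PSD in 020816_07 (0.0948 CPM), MICALL1 (0.226 CPM) and KRT7 (0.113 CPM) in 020816_08, and N4BP3 (0.401 CPM) and IL6 (0.267 CPM) in 112815_02. The 8-cell embryo 112815_02 stood high for PDHB (ratio 0.844, 82.3 CPM), NLRP7 (0.860, 653 CPM), S100P (0.847, 7.88 CPM) and GATA6 (0.890, 191 CPM), and low for RPA2 (0.979, 86.1 CPM). SLC2A4 was low in 020816_06 (0.854, 6.53 CPM), MACROH2A1 was low in 020816_08 (0.830, 5.32 CPM) and DAZL was high in 020816_07 (0.838, 91.1 CPM). The 3 morulas are too few for this check.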

How the results depend on the processing

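The 2371 calls kept within 1.5 times under other scaling and under looser or stricter filters (2038 to 2404). They numbered 3579 with DESeq2 (1972 lower), 1603 lower with limma voom, and 1266 (605 higher) with only the 7 libraries. Leaving out each library gave 1740 to 2550 calls, 1082 to 1585 higher and 599 to 965 lower. Without the 3 8-cell embryos high in cumulus markers 654 were lower. The higher genes made 58.5% of the calls, against 44.9% with DESeq2, 47.8% with only the 7 libraries and 71.0% without the 3 8-cell embryos, where the median of all genes was 0.33. SPIA gave 224 calls in the same embryos (85 higher, 139 lower), 9 in other embryos (3 and 6), and, chosen after seeing the data, 160 without 022916_02 (50 and 110) and 4 within code 020816 (4 and 0). With both kits, the embryo as a replicate block gave 1511 calls (799 higher, 712 lower) against 2097 without the block. The causes were not tested.

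Of 163 called genes named, 128 were called without any single library, and 32 were not in at least 1 such fit. Reversed log2 fold changes were these. In other SPIA embryos, with and without 022916_02: ZFP57 -0.73 and -0.41, PDIA6 -0.45 and -0.31, GOT2 -0.74 and -0.38, CNOT7 -0.70 and -0.63, ESRRB -0.26 and -0.025, HMGCS1 -0.28 and -0.23, HDAC4 1.97 and 2.35. Without it, GOT1 was at -0.81 and PPP2R2C at 0.038. In SPIA of the same embryos EIF2AK1 was at -0.85, MBD3 at -0.10 and SLC6A9 at -1.01. Within code 020816 NOB1 was at 0.51, CNOT7 at -1.17, HMGCS1 at -1.24, HDAC4 at 1.32 and GATA4 at -2.38. Without the 3 8-cell embryos CDKN1C (2.53) and INHA (3.18) turned, with both stages at or under the floor. Leaving out each library gave -1.86 to 7.80 for GATA2, -0.30 to 2.44 for GATA3 and -6.69 to 1.15 for GATA4, with the lowest value without morula 022916_01, and GATA4 was at -2.29 with voom, -0.70 with the replicate block and -0.66 without it. Depth limits genes under about 1 CPM, where an 8-cell library of 7069953 counts holds few reads of a gene.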

Other observations

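The library labelled morula 022916_02 in SPIA had no SoLo partner among the libraries used here. Its TPRX1 was 104 CPM, against 0 to 6.87 CPM in the other 7 SPIA morulas outside the SoLo embryos and 0.157 to 104 CPM in the 5 8-cell embryos. Its KLF17 was 118 CPM, against 0 to 62.9 CPM in those morulas and 0.707 to 269 CPM in those 8-cell embryos. It also held 262 CPM of GATA2 and 126 CPM of GATA3, while no other of these 13 libraries passed 12.7 CPM for GATA2 or 15.0 CPM for GATA3. KRT18 was at 1.6 CPM in it, against 4.36 to 39.5 CPM in the other 7 morulas. AMOTL2, at 54.4 CPM, stood with the morulas.

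Of 25 measured markers of cumulus and granulosa cells, 7 fell below the filter on low counts. The FSH receptor FSHR had 0 counts in every morula, against 15, 136, 1 and 1 counts in 8-cell embryos. NR5A1, a regulator of steroid synthesis, had 0 counts in every morula, against 15, 197, 0 and 5 counts in 8-cell embryos. Both were highest in 020816_07, the embryo with the highest sum of cumulus markers. The receptor of luteinizing hormone, LHCGR, had 0, 0 and 2 counts in morulas, against 24, 0, 0 and 46 counts in 8-cell embryos. TNFAIP6, which links hyaluronan in the cumulus matrix, had 0, 0 and 1 counts in morulas, against 0, 2, 0 and 47 counts in 8-cell embryos. Both were highest in 112815_02 and at or near 0 in 020816_07. AMHR2, LUM and DCN had 9 counts or fewer in every library.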
